A study of Mus musculus with 24 samples.

Results

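The miRNAs described here were the guide strands of the miR-10 and miR-196 families, which are encoded inside the Hox gene clusters. They were chosen by name from the list of measured miRNAs as mmu-miR-10a-5p, mmu-miR-10b-5p, mmu-miR-196a-5p, and mmu-miR-196b-5p (mmu, the mouse prefix, is dropped below), which made 4 of the 1531 mouse entries. Hox genes encode transcription factors that give position along the head to tail axis, and their expression in the embryonic neural tube begins in the hindbrain and extends into the spinal cord. MiR-10 and miR-196 are transcribed from within these clusters, share much of that axial pattern, and target Hox transcripts among others, with Hoxb8 a classic target of miR-196. The cerebellum arises from the anterior hindbrain, and its main source, the first rhombomere, lies in front of the territory of Hox expression in the embryo, as does the forebrain, from which the cortex, striatum, and thalamus arise.

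The miRNA-Seq data came from CD1 mouse pups of both sexes at postnatal day 9, with 4 pups in the hypoxic-ischemic brain injury (HIBI) group and 4 sham control pups. In the HIBI group the right common carotid artery was cauterized, and after 2 h of recovery the pups breathed 8% oxygen for 30 min. Sham pups were anesthetized and had neck surgery that spared the artery, and were kept in normal air away from the dam while the HIBI group was in hypoxia. The right cerebellum, striatum/thalamus, and cortex of each pup were taken 30 min later, which gave 24 libraries from 200 ng of RNA each. The same 8 pups gave all 3 regions, and no group had hypoxia without ligation. How the cerebellum was parted from the adjoining brainstem, and the sex of each pup, are not given in the sources used here. Brainstem expresses Hox genes, so any of it in the cerebellum piece would add to the levels of these miRNAs there, which was not tested. Counts on mouse miRNAs ran from 1254185 to 3406624 per library. Levels are given in CPM, the count of a miRNA relative to the total of its library after TMM scaling over the 24 libraries.

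The mature sequences, taken from RefSeq on build GRCm38.p6, show why the 4 members form 2 pairs. Each is written 5′ to 3′ with the seed, bases 2 to 8, in capitals.
miR-10a-5p: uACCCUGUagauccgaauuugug
miR-10b-5p: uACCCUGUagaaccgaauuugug
miR-196a-5p: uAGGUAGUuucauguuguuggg
miR-196b-5p: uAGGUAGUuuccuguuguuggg
The members of a pair had the same seed, and no other mature mouse miRNA in that table carried either seed. Counted from 1 at the 5′ end, miR-10a-5p and miR-10b-5p differed by U12A, and miR-196a-5p and miR-196b-5p by A12C. A pair that differs at 1 base can share reads in the counting, so the split of reads within each pair is uncertain. The next closest sequence to miR-10a-5p was miR-100-5p, at an edit distance of 3 and a mean of 4890 CPM over the 24 libraries, against 179 CPM for miR-10a-5p itself. Whether reads of miR-100-5p were counted on miR-10a-5p was not tested.

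The hairpins lie in all 4 Hox clusters on GRCm38. Mir10a, at chr11:96317165-96317274 on the plus strand, overlapped no annotated gene in GENCODE M21 and lay 993 bases from Hoxb4 and 11044 bases from Hoxb5. Mir10b, at chr2:74726070-74726137 on the plus strand, lay in introns of Hoxd3 and Hoxd4 transcripts. MiR-196a-5p comes from a pair of loci whose mature sequences were identical, so its count pools both. Mir196a-1, at chr11:96265164-96265265 on the plus strand, was 6192 bases from Hoxb9, and Mir196a-2, at chr15:102973350-102973434 on the plus strand, lay between Hoxc10 and Hoxc9 in an intron of the long annotated span of Hoxc5. Mir196b, at chr6:52230081-52230165 on the minus strand, overlapped an exon annotated to Hoxa9. Both miR-10 precursors are shown with the guide strand in capitals, since the regional results rest on these loci.
Mir10a: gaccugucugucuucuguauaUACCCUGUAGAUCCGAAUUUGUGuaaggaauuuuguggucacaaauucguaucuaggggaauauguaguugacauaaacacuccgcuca
Mir10b: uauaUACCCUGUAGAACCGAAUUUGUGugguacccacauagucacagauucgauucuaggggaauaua

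The miR-10 guide strands were present in every library, and miR-196 was near the limit of detection. Over the 24 libraries miR-10a-5p had 9175 counts and miR-10b-5p 10269. MiR-196a-5p had 11 counts in 5 libraries, and miR-196b-5p had 15 counts in 4 libraries. Of the 4 members, 2 (miR-10a-5p and miR-10b-5p) passed the minimum of an average above 10 CPM over the 24 libraries and entered the fits across all miRNAs. Neither miR-196 passed, and each is given by its counts.

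MiR-10a-5p was highest in the cerebellum, intermediate in the striatum/thalamus, and lowest in the cortex. In the sham cerebellum it was 236 CPM in pup 2, 1208 in pup 3, 355 in pup 6, and 387 in pup 8, and in the HIBI cerebellum 183 in pup 1, 433 in pup 4, 462 in pup 5, and 294 in pup 7. In the striatum/thalamus it was 68.0, 104, 125, and 74.2 CPM in sham pups 2, 3, 6, and 8, and 57.5, 82.0, 79.6, and 46.4 CPM in HIBI pups 1, 4, 5, and 7. The cortex of the same sham pups had 9.00, 34.8, 12.4, and 10.9 CPM, and the same HIBI pups 9.42, 6.40, 9.07, and 14.3 CPM. The 3 regions did not overlap in any library. Sham pup 3 stood above all other pups in the cerebellum and in the cortex, but not in the striatum/thalamus, where sham pup 6 was higher. The regional means were 445 ± 323 CPM for cerebellum, 79.6 ± 25.1 for striatum/thalamus, and 13.3 ± 9.01 for cortex (SD, n = 8 each).

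MiR-10b-5p matched miR-10a-5p in level in the cerebellum and striatum/thalamus, but stayed higher in the cortex. In the sham cerebellum it was 369 CPM in pup 2, 627 in pup 3, 421 in pup 6, and 446 in pup 8, and in the HIBI cerebellum 291 in pup 1, 435 in pup 4, 479 in pup 5, and 431 in pup 7. In the striatum/thalamus it was 88.6, 110, 142, and 53.5 CPM in sham pups 2, 3, 6, and 8, and 59.6, 102, 92.7, and 78.5 CPM in HIBI pups 1, 4, 5, and 7. The cortex of the same sham pups had 28.3, 53.9, 91.3, and 37.3 CPM, and the same HIBI pups 37.1, 35, 49.4, and 97.9 CPM. Every cerebellum library was above every forebrain library, while the striatum/thalamus and cortex libraries overlapped. Pup 3 was again the highest in the cerebellum, and in the cortex the highest values were those of sham pup 6 and HIBI pup 7. The regional means were 437 ± 95.7 CPM for cerebellum, 90.8 ± 28.4 for striatum/thalamus, and 53.8 ± 26.5 for cortex (SD, n = 8 each).

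**Figure D1:**
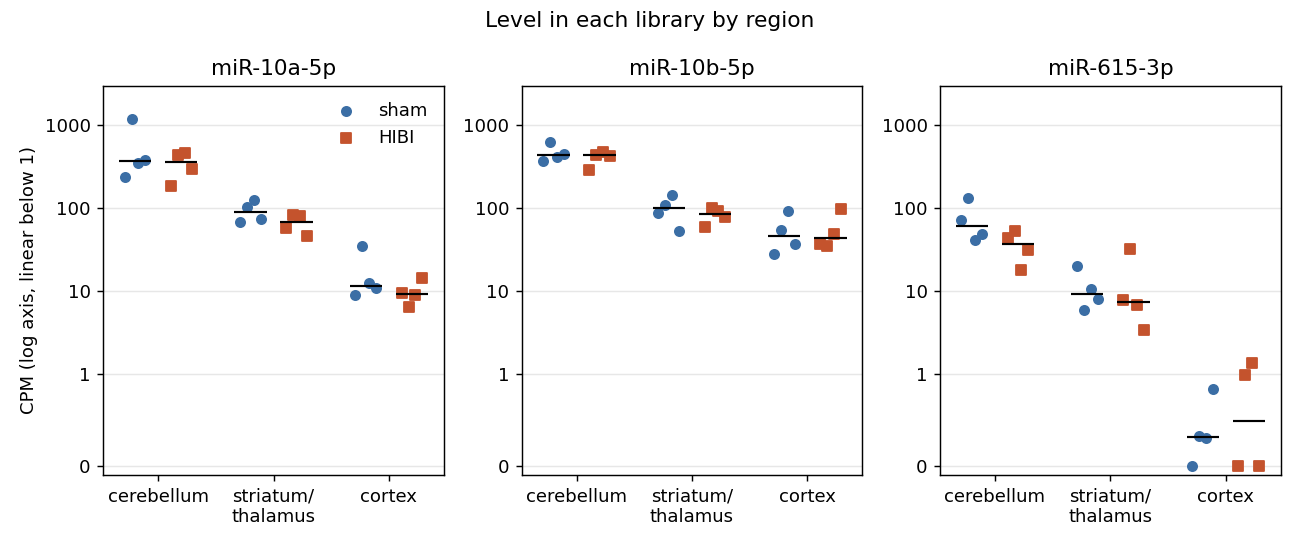
Level of miR-10a-5p, miR-10b-5p, and miR-615-3p in each library (CPM after TMM scaling, log axis with a linear part below 1) by region, with sham pups as circles, HIBI pups as squares, and a line at the median of each group of 4. MiR-10a-5p fell from a mean of 445 CPM in the cerebellum to 13.3 in the cortex, and miR-10b-5p from 437 to 53.8.

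The comparison of the cerebellum with the forebrain asked how far the hindbrain region stood above the mean of the striatum/thalamus and cortex. MiR-10a-5p was 13.6-fold higher in the cerebellum (log2 fold change 3.76, SE 0.263, adjusted p = 9.11e-12), and miR-10b-5p was 6.24-fold higher (log2 fold change 2.64, SE 0.203, adjusted p = 4.22e-11). Both were higher in the cerebellum in 8 of 8 pups. Of the 435 miRNAs tested with edgeR's quasi-likelihood test, 315 (72.4%) were called, 163 (37.5%) as higher in the cerebellum and 152 (34.9%) as lower, so a call by itself was common. The sizes were less so, since miR-10a-5p ranked 7 and miR-10b-5p 17 of 435 by log2 fold change, where the median over all miRNAs tested was 0.05. Every cerebellum library exceeded every striatum/thalamus library in 62 miRNAs (14.3%) and every cortex library in 52 (12%), and both miR-10 members were among them in each case. In bulk tissue, fewer cells with a miRNA and less of it per cell cannot be told apart. A two-sided exact test that swapped the regions within each pup gave p = 0.00781 for each member, the smallest that 8 pups can give.

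The members of the miR-10 pair parted between the forebrain regions. In the comparison of the striatum/thalamus with the cortex, miR-10a-5p was 6.05-fold higher (log2 fold change 2.60, SE 0.338, adjusted p = 2.33e-06) and miR-10b-5p 1.68-fold higher (log2 fold change 0.75, SE 0.248, adjusted p = 0.0147). MiR-10a-5p was higher in the striatum/thalamus in 8 of 8 pups and miR-10b-5p in 7 of 8. Of the 435 miRNAs, 234 (53.8%) were called, 125 (28.7%) as higher in the striatum/thalamus and 109 (25.1%) as lower. By log2 fold change miR-10a-5p ranked 4 and miR-10b-5p ranked 90, and the median over all miRNAs was -0.02. Every striatum/thalamus library exceeded every cortex library in 32 miRNAs (7.36%), which included miR-10a-5p and not miR-10b-5p. The call for miR-10b-5p was lost without HIBI pup 4 (log2 fold change 0.61, adjusted p = 0.0704) and in the HIBI libraries alone (0.57, adjusted p = 0.196). Over all its alternatives its adjusted p ran from 0.00208 to 0.196. Set against the cerebellum one region at a time, miR-10a-5p was 5.51-fold higher in the cerebellum than in the striatum/thalamus and 33.4-fold higher than in the cortex. For miR-10b-5p these folds were 4.82 and 8.08. By log2 fold change miR-10a-5p ranked 21 of 435 against the striatum/thalamus and 3 against the cortex, and miR-10b-5p 23 and 10. Both members were called in each, where 304 of the 435 miRNAs (69.9%) were called against the striatum/thalamus, 33.8% as higher and 36.1% as lower in the cerebellum, and 282 (64.8%) against the cortex, 34.0% as higher and 30.8% as lower.

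The ratio of miR-10b-5p to miR-10a-5p within a library does not depend on the scaling and restates the same divergence from the same counts. It does depend on how reads were split within the pair, which is uncertain. In the cerebellum the ratio of counts ran from 0.519 to 1.59 (median 1.17), and in the striatum/thalamus from 0.720 to 1.69 (median 1.15). In the cortex it ran from 1.55 to 7.37 (median 4.63). The lowest ratio in the cerebellum and in the cortex was that of sham pup 3, and without it the cortex libraries all held at least 3.15 counts of miR-10b-5p for each count of miR-10a-5p. On the log2 scale the ratio was 0.18 ± 0.523 for cerebellum, 0.19 ± 0.348 for striatum/thalamus, and 2.07 ± 0.734 for cortex (SD, n = 8 each). It was higher in the cortex than in the striatum/thalamus of the same pup by 1.88 on average, in 8 of 8 pups (two-sided exact test, p = 0.00781, chosen after the values were seen). Between the striatum/thalamus and the cerebellum it differed by 0.01 (exact p = 0.969). The cortex ratio rests on 291 counts of miR-10a-5p over 8 libraries, between 13 and 109 in each, so that its counting error is the largest of the 3 regions.

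**Figure D2:**
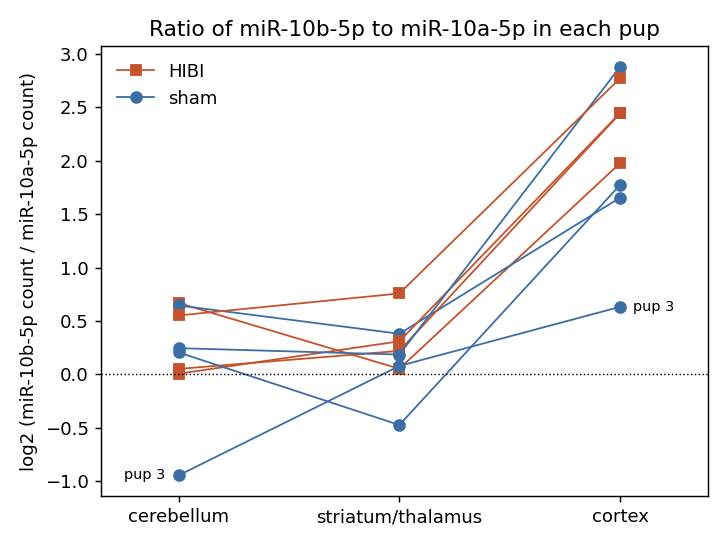
Log2 ratio of the miR-10b-5p count to the miR-10a-5p count in each pup across the 3 regions, with a line for each pup (sham circles, HIBI squares) and a dotted line at equal counts. The ratio averaged 0.18 for cerebellum, 0.19 for striatum/thalamus, and 2.07 for cortex, and sham pup 3 was the lowest in the cerebellum and in the cortex.

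The passenger strands of the miR-10 hairpins were scarce. MiR-10a-3p had 34 counts over the 24 libraries, 0.369% of the counts of both arms (95% exact binomial interval 0.256% to 0.516%), and miR-10b-3p had 16, or 0.156% (0.0889% to 0.253%). By region the share of the 3p arm of miR-10a was 0.274% in the cerebellum (0.170% to 0.419%), 0.870% in the striatum/thalamus (0.435% to 1.55%), and 0.683% in the cortex (0.0828% to 2.44%). Sham pup 3 held 8 of the 11 counts of miR-10a-3p in the striatum/thalamus, and without that library the share there was 0.298% (0.0615% to 0.868%). The cortex share rests on 2 counts, and without sham pup 6 it was 0.398%. The share of miR-10b was 0.0782%, 0.140%, and 0.680%, from 6, 2, and 8 counts. Sham pup 6 held 4 of the 6 in the cerebellum and 1 of the 2 in the striatum/thalamus, and without it these shares were 0.0296% and 0.0882%. In the cortex, 6 of the 8 counts of miR-10b-3p came from sham pup 3, and without that library the share was 0.200%. These libraries were left out after the values were seen. In the 6 cerebellum libraries with counts on both arms, the log2 ratio of the 5p to the 3p arm of miR-10a was 8.25 ± 0.715 (SD). Intervals and floors cover counting error only, since amplified reads are not independent molecules.

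The miR-196 guide strands, encoded nearer the posterior end of the clusters, had 0 counts in the cortex and few in the other regions. MiR-196a-5p had 1 count in the cerebellum of sham pup 6, 2 in HIBI pup 1, 4 in HIBI pup 4, 2 in HIBI pup 5, and 0 in the other cerebellum libraries. In the striatum/thalamus it had 2 counts, in sham pup 6. The cerebellum counts amount to 0.514 CPM, without scaling, over its 8 libraries pooled (95% Poisson interval 0.235 to 0.976). The 8 cortex libraries held 0 counts in 21014279, where a floor of 3 counts corresponds to 0.143 CPM without scaling. The pooled cerebellum value was 3.60 times this floor, and the low end of its interval gave a bound of 1.65-fold. HIBI pup 4 held 4 of the 9 cerebellum counts. Without that library, left out after the values were seen, the interval was 0.106 to 0.760 CPM and reached under the floor, so no bound holds. The cerebellum exceeded the striatum/thalamus by a ratio of 3.97, with a counting interval of 0.822 to 37.8. The exact test of the cerebellum against the forebrain gave p = 0.125 for miR-196a-5p, with 4 pups higher, 0 lower, and 4 equal. With 4 pups equal, no smaller p was possible.

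MiR-196b-5p showed no order between the cerebellum and striatum/thalamus at this depth. It had 4 counts in the cerebellum of sham pup 8, 1 in that of HIBI pup 7, 7 in the striatum/thalamus of sham pup 3, and 3 in that of HIBI pup 5. The cerebellum to striatum/thalamus ratio was 0.441, with a counting interval of 0.118 to 1.42. The pooled striatum/thalamus value was 4.53 times the floor of 3 counts over the cortex libraries. The low end of its interval gave a bound of 2.17-fold. Sham pup 3 held 7 of the 10 striatum/thalamus counts, and without that library the 3 counts left give no bound. In the cerebellum 4 of the 5 counts came from sham pup 8, and the pooled 0.286 CPM without scaling (95% Poisson interval 0.0927 to 0.667) reached under the same floor of 0.143 CPM. In the exact test of the cerebellum against the forebrain (p = 1.00), 2 pups were higher, 2 lower, and 4 equal.

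The other listed miRNAs of the Hox clusters were 4 strands, of which only miR-615-3p passed the CPM minimum. Mir615 lies at chr15:103014910-103015001 on the plus strand, in an intron of Hoxc5, and its 3p strand, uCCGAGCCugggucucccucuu, has a different seed from those above. Its level ran from 17.8 to 131 CPM in the cerebellum (median 46.2), from 3.38 to 32.5 in the striatum/thalamus (median 7.87), and from 0 to 1.34 in the cortex (median 0.311). Every cortex library was below every library of the other regions, while those of the cerebellum and striatum/thalamus overlapped. It passed the minimum mainly through the cerebellum. Its average over the 24 libraries was 22.6 CPM without scaling, and its scaled means were 54.9 CPM for cerebellum, 11.8 for striatum/thalamus, and 0.473 for cortex. The log2 fold change was 4.37 for the cerebellum against the forebrain (SE 0.390, adjusted p = 6.59e-10) and 4.45 for the striatum/thalamus against the cortex (SE 0.591, adjusted p = 2.40e-06). It ranked 3 of 435 in the first and 1 of 435 in the second. The first of these averages a cortex near 0 counts with the striatum/thalamus, and against the striatum/thalamus alone the log2 fold change was 2.15, or 4.42-fold, and ranked 25 of 435. The cortex value rests on 10 counts against 167 in the striatum/thalamus, a pooled ratio of 22.7 with a counting interval of 12 to 48.2. Over 17 alternatives, which included a lower CPM minimum and none, the value against the forebrain ran from 3.72 to 5.12. That of the striatum/thalamus against the cortex ran from 4.04 to 4.99, and both kept their call. MiR-10a-3p and miR-10b-3p are given above, and miR-196a-1-3p had 4 counts, in the striatum/thalamus of sham pup 8.

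Levels of miRNAs listed for particular tissues and cell types are given beside the Hox-cluster miRNAs. The lists were drawn up with earlier results of these data known, so they are no independent check of the region labels, and with 37.5% of all miRNAs called higher and 34.9% lower in the cerebellum, a call of a list member was common. All 3 miRNAs of the cerebellum and hindbrain list (miR-206-3p, which is also a skeletal muscle miRNA, miR-195a-5p, and miR-497a-5p) were called higher in the cerebellum, with a median log2 fold change of 3.01 and a summed level of 1244 ± 246 CPM there, 90.6 ± 23.2 for striatum/thalamus, and 230 ± 58.4 for cortex (SD, n = 8 each). All 3 of the forebrain list (miR-138-5p, miR-221-3p, and miR-222-3p) were called lower in the cerebellum, with a median of -2.25 and sums of 465, 1360, and 2324 CPM in the same order. The nervous tissue list (miR-124-3p, miR-9-5p, miR-9-3p, and miR-128-3p) summed to 166500, 109400, and 209000 CPM. It was led by miR-9-5p in the cerebellum (87310 CPM), miR-124-3p in the striatum/thalamus (38250 CPM), and miR-128-3p in the cortex (89120 CPM). Of its 4 members, 2 were called higher and 1 lower in the cerebellum.

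For the lists of other cell types, counts of members called are read against the same 37.5% called higher, no list as a whole was tested, and their part in the miR-10 result was not tested. For oligodendrocytes, which make myelin, 2 of the 3 listed miRNAs were in the data and both were called higher in the cerebellum (median log2 fold change 1.62), where the sum was 6258 CPM against 2539 for striatum/thalamus and 1599 for cortex, nearly all of it miR-219a-2-3p. The mesenchyme and meninges list, led by miR-199a-3p, had 3 of 3 called higher (median 1.21), with sums of 264, 105, and 130 CPM in the same order. For skeletal muscle, miR-1a-3p was called higher (1.64) and miR-133a-3p was under the CPM minimum, with sums of 147, 51.7, and 39.3 CPM. Of the choroid plexus and ciliated epithelium list, led by miR-204-5p, 4 of 6 were tested and 3 were called higher (median 0.76), with sums of 4372, 2637, and 2545 CPM. Of the vessel wall list, 3 of 4 were tested and 2 called higher (median 0.53), with sums of 6853, 3949, and 6084 CPM. It was led by miR-126a-3p in the cerebellum and cortex. In the striatum/thalamus miR-143-3p had 1680 CPM against 1663 CPM for miR-126a-3p. Of the erythrocyte list, led by miR-486a-5p, 2 of 3 were tested and 1 called higher (median 0.50), with sums of 906, 832, and 561 CPM. No miRNA of these lists was at 0 in all libraries.

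The miRNAs outside the Hox clusters whose levels followed the miR-10 pair most closely over the 24 libraries were also enriched in the cerebellum. For miR-10a-5p these were miR-206-3p (Pearson r = 0.938), miR-216a-3p (0.906), and miR-2137 (0.876), of 432 compared. For miR-10b-5p they were miR-206-3p (0.953), miR-216b-5p (0.922), and miR-217-5p (0.907). Within the Hox list miR-10a-5p had r = 0.918 with miR-10b-5p and 0.922 with miR-615-3p. These values mainly follow the 3 regions, which the libraries share, and carry no test. MiR-206-3p averaged 353 CPM for cerebellum, 29.6 for striatum/thalamus, and 8.26 for cortex, the same order as miR-10a-5p. MiR-216b-5p had that order too, at 5421, 306, and 230 CPM.

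Within the 8 cerebellum libraries alone, the most alike were other miRNAs. For miR-10a-5p they were let-7c-1-3p (r = 0.805), miR-92b-5p (0.774), and miR-200c-3p (0.766), and for miR-10b-5p miR-669a-5p (0.844), let-7c-1-3p (0.823), and miR-200c-3p (0.789). None of these averaged more than 41.1 CPM in the cerebellum. They were the highest of 432 compared over only 8 libraries, so values of this size can arise from that choice alone, and they carry no test. MiR-10a-5p and miR-10b-5p had r = 0.953 with each other over these 8 libraries, where both were highest in sham pup 3 and lowest in HIBI pup 1, and r with miR-615-3p was 0.431 and 0.292. The shared mature sequence outside 1 base may add to the likeness of the miR-10 pair if reads were split between them, which was not tested.

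The comparison of HIBI with sham within each region asked whether the miR-10 members had moved 30 min after hypoxia. Neither was counted in any region by a fold change above 1.5 with an unadjusted p-value under 0.05, where 34 of 434 miRNAs (7.83%) were counted in the cerebellum, 12 of 436 (2.75%) in the striatum/thalamus, and 14 of 410 (3.41%) in the cortex. Those counted as higher in HIBI made 3.69%, 2.52%, and 3.17% of the miRNAs tested, and those counted as lower 4.15%, 0.229%, and 0.244%. The HIBI and sham libraries of both members overlapped in each region. Over all miRNAs tested, the share without overlap was 3.92% for cerebellum, 1.83% for striatum/thalamus, and 3.41% for cortex. No miRNA had an adjusted p under 0.05 by edgeR in the cerebellum or striatum/thalamus, where 44 (10.1%) and 14 (3.21%) had an unadjusted p under 0.05. In the cortex 1 miRNA (0.244%) had an adjusted p under 0.05 and 19 (4.63%) an unadjusted p under 0.05.

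The log2 fold change of miR-10a-5p, HIBI minus sham, was -0.71 in the cerebellum (95% interval -1.76 to 0.35, adjusted p = 0.492), -0.58 in the striatum/thalamus (-1.21 to 0.05, adjusted p = 0.980), and -0.77 in the cortex (-1.73 to 0.20, adjusted p = 0.915). Two-sided exact tests of 4 against 4 pups gave p = 0.514, 0.171, and 0.343, where the smallest possible is 0.0286. The values in the cerebellum and cortex rested on sham pup 3. Without it they became 0.08 (-0.61 to 0.77) and -0.11 (-0.88 to 0.66), and that of the striatum/thalamus -0.51 (-1.24 to 0.22). Leaving out sham pup 2 moved the cerebellum value to -1.0 and the striatum/thalamus value to -0.70, and leaving out HIBI pup 5 moved the latter to -0.70, all of which would have been counted (adjusted p = 0.831, 0.923, and 0.389).

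In the cerebellum of sham pup 3, miR-615-3p was also the highest, at 131 CPM against 41.3 to 72.9 CPM in the other sham pups, while the hindbrain miRNAs outside the Hox clusters were not raised. It had 377 CPM of miR-206-3p, within the 360 to 546 CPM of the other sham pups, and a sum of 1198 CPM for the cerebellum and hindbrain list, just under the 1201 to 1656 CPM of the others. In the cortex its miR-206-3p was 12.1 CPM, above the 6.65 to 6.75 CPM of the other sham pups and below the 15.4 CPM of HIBI pup 7, and its cortex sum for that list, 289 CPM, was the highest by a narrow margin. In the striatum/thalamus its miR-206-3p, 48.1 CPM, was the highest of the 8 pups. Its sum for that list there, 112 CPM, was under the 123 CPM of sham pup 6 and the 116 CPM of HIBI pup 5. Whether the dissection of this pup took in other tissue was not tested.

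For miR-10b-5p, the log2 fold change of HIBI against sham was -0.19 in the cerebellum (95% interval -0.72 to 0.35, adjusted p = 0.712), -0.34 in the striatum/thalamus (-1.02 to 0.34, adjusted p = 0.980), and 0.06 in the cortex (-0.80 to 0.92, adjusted p = 0.990). The exact tests gave p = 0.486, 0.600, and 0.914. Each interval takes in a change of 1.5-fold in at least 1 direction, so a modest change could go unseen with 4 pups a group. The difference of the HIBI effect between the forebrain and the cerebellum was 0.04 for miR-10a-5p (SE 0.565, adjusted p = 0.978) and 0.09 for miR-10b-5p (SE 0.422, adjusted p = 0.931). No miRNA of 435 (0%) was called for this difference by edgeR or by DESeq2, and 70 (16.1%) had an unadjusted p under 0.05 by edgeR. The log2 ratio of miR-10b-5p to miR-10a-5p was higher in HIBI than in sham by 0.28 for cerebellum, 0.29 for striatum/thalamus, and 0.68 for cortex (exact p = 0.600, 0.343, and 0.257). These differences leaned on single sham pups. In the cerebellum sham pup 3 was at -0.95, against 0.21 to 0.65 in the other sham pups and 0.01 to 0.67 in HIBI. The direction there rested on that pup. Sham pup 3 was at 0.6 in the cortex, against 1.7 to 2.9 in the other sham pups. In the striatum/thalamus sham pup 8 was at -0.47, against 0.08 to 0.38 in the other sham pups.

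**Figure D3:**
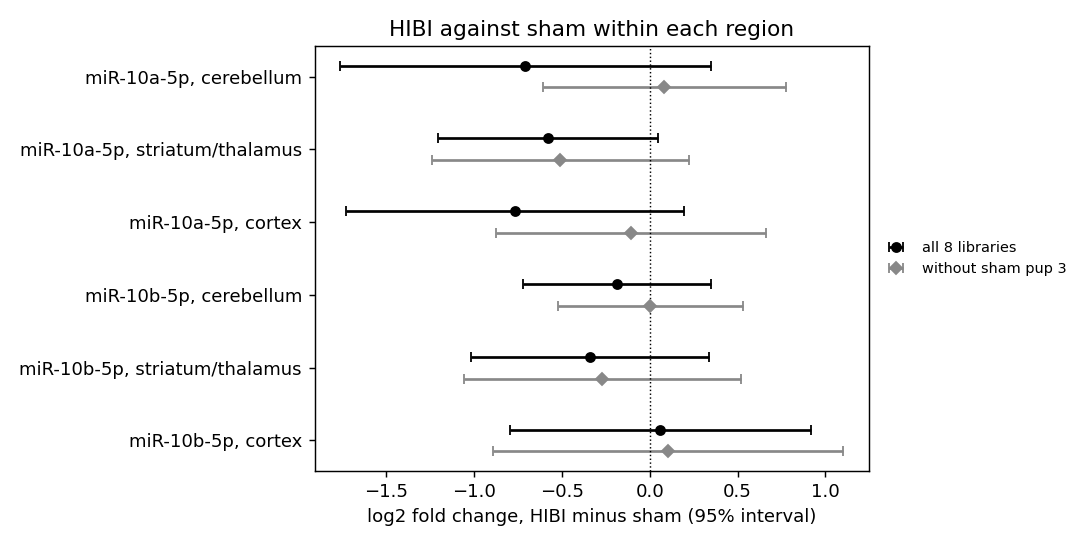
Log2 fold change of miR-10a-5p and miR-10b-5p between HIBI and sham in each region with its 95% interval, from all 8 libraries of a region (black circles) and without sham pup 3 (grey diamonds). The cerebellum value of miR-10a-5p was -0.71 with all pups and 0.08 without sham pup 3, and every interval includes 0.

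Of the other Hox strands, miR-615-3p was counted as lower in the HIBI cerebellum. It was 72.9, 131, 41.3, and 49.4 CPM in sham pups 2, 3, 6, and 8, and 43.1, 52.5, 17.8, and 31.3 CPM in HIBI pups 1, 4, 5, and 7. The groups overlapped, with the lowest sham pup (pup 6) under HIBI pups 1 and 4. The log2 fold change was -1.03 (95% interval -1.99 to -0.08, adjusted p = 0.432), and the exact test gave p = 0.143. Without sham pup 3 it was -0.57 and no longer counted. It was also no longer counted without HIBI pup 5 (-0.80), without HIBI pup 7 (-0.98), with library size alone as the scaling (-0.87), or in a fit of all 24 libraries together (-1.03). In the striatum/thalamus its log2 fold change was 0.05 (adjusted p = 0.992), a value that rests on the 32.5 CPM of HIBI pup 4, against 3.38 to 7.81 CPM in its group otherwise and 5.85 to 19.9 CPM in the sham pups. Without HIBI pup 4 it was -0.90 (95% interval -2.18 to 0.39), and on log2(CPM + 1) with all pups the mean difference was -0.14. In the fit of 24 libraries, the difference of its HIBI effect between the forebrain and the cerebellum was 1.46 (SE 0.876, adjusted p = 0.386). With a pup left out this difference ran from 0.88 to 1.87. Its forebrain part includes the cortex, which held 10 counts of miR-615-3p.

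Of the marker miRNAs, 26 were tested between the HIBI and sham cerebellum and 2 (7.69%) were counted, near the 7.83% of all miRNAs tested, and none had an adjusted p under 0.05. MiR-206-3p was 546, 377, 394, and 360 CPM in sham pups 2, 3, 6, and 8, and 254, 346, 272, and 272 CPM in HIBI pups 1, 4, 5, and 7. Its groups did not overlap, as in 3.92% of the miRNAs tested, and its log2 fold change was -0.53 (adjusted p = 0.432), a fold under the 1.5 needed to be counted. The other miRNAs of that list, miR-195a-5p and miR-497a-5p, had log2 fold changes of 0.07 and -0.25. The forebrain markers miR-138-5p, miR-221-3p, and miR-222-3p had values of 0.55, 0.50, and 0.49 (adjusted p = 0.432, 0.432, and 0.533). Of the choroid plexus list, miR-204-5p had -0.72 and miR-34b-3p -0.78 (adjusted p = 0.432 for each), miR-34c-5p -0.54, and miR-449a-5p -0.06. Its sum was 10180 CPM in sham pup 2, against 2558 to 4636 in the other sham pups and 2764 to 4054 in HIBI. The markers counted were miR-486a-5p of the erythrocyte list (-0.86) and miR-1a-3p of the skeletal muscle list (1.05), with adjusted p = 0.432 for each. The skeletal muscle sum, mostly miR-1a-3p, was highest in HIBI pup 5, at 379 CPM. It was 91.3 to 182 CPM in the other HIBI pups and 55.1 to 141 CPM in the sham pups. The relation of these markers to the miR-10 and miR-615-3p values was not tested.

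For miR-196 the comparison of HIBI with sham rested on single counts. In the cerebellum miR-196a-5p had 8 counts in 3 HIBI pups and 1 count in 1 sham pup, a ratio of 9.42 with a counting interval of 1.26 to 418, and the exact test over pups gave p = 0.143. HIBI pup 4 held 4 of the 8 HIBI counts, so the low end of this interval leans on that library. In the striatum/thalamus it had 0 counts in the HIBI libraries and 2 in the sham libraries, and no fold is given. MiR-196b-5p had 1 count in HIBI against 4 in sham in the cerebellum (ratio 0.294, counting interval 0.00598 to 2.98) and 3 against 7 in the striatum/thalamus (0.472, 0.0787 to 2.07), each from a single library per group, and the exact p was 1.00 in both regions.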

How the data were processed

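MiRNA-Seq was run on the right cerebellum, striatum/thalamus, and cortex of 8 pups. Reads were aligned with bowtie2 to the mature mouse sequences of miRBase, and the authors deposited a count for every miRNA in every library. The miRBase release, the tool versions, and how a read matching more than 1 miRNA was counted are not given in the sources used here. The deposited tables also hold columns of the authors' HIBI against sham comparison (log2 fold change, average log2 CPM, p-value, and false discovery rate), which were not used. Of 1551 entries per table, 20 named for the castor bean (0.000156% of counts) were left out.

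The 4 members and all lists were chosen with earlier results of these data known. The miRNAs named are the members, the other listed strands of miR-10, miR-196, and miR-615, the marker lists, and, for each member above 10 CPM, the 3 miRNAs most correlated with it over 24 and over the 8 cerebellum libraries. The fits used edgeR 4.0.16 with limma 3.58.1 under R 4.3.3 (TMM scaling, quasi-likelihood test, Benjamini-Hochberg adjustment over all miRNAs tested, average above 10 CPM), with DESeq2 1.42.0 as an alternative. Regions were compared in 1 model of 6 group means over the 24 libraries, called at an adjusted p under 0.05, and HIBI with sham within the 8 libraries of a region. The code was tested on simulated data. Exact tests were two-sided on log2(CPM + 1), with 256 sign changes within pups or 70 arrangements of 4 against 4 pups. The floor is 3 counts of the total. No 2 replicates differed by less than sampling noise over 36 pairs (smallest chi-square per degree of freedom 27.2).

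The subject number in the labels ties the 3 regions to a pup. Each pup's departures from its group mean over 435 miRNAs were correlated between regions. The median r was 0.16 for cerebellum with striatum/thalamus (above 0.1 in 5 of 8 pups), 0.27 for cerebellum with cortex (7 of 8), and 0.19 for striatum/thalamus with cortex (5 of 8). The lowest r was -0.104, -0.0154, and -0.121 in the same order. Regions of different pups were not correlated as a reference, so these values cannot check the labels. Members that passed the CPM minimum were kept in each fit with a pup left out, a choice made after seeing the data, as was the exact test of the miR-10 ratio. Mature and hairpin sequences are from RefSeq on GRCm38.p6, where all 4 members were matched, and gene positions from GENCODE M21.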

Additional observations from a re-analysis of the deposited data

Results flagged for a closer look

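In groups of 4 pups, the highest or lowest library was compared with the rest by Dixon's criterion. Chance meets it in about 1 in 20 groups of normally distributed values. CPM was taken without a log, where skewed values can meet it more often, so 1 in 20 is only a guide here. Whether these libraries stood apart in CPM on a log scale was not tested. Of the 31 groups examined, those of the members, miR-615-3p, and the miR-10 ratio with any spread, 9 held a library apart. MiR-10a-5p was 1208 CPM in the cerebellum of sham pup 3, against 236 to 387 CPM in the other sham pups, and 34.8 CPM in its cortex, against 9.00 to 12.4 CPM. MiR-615-3p was 32.5 CPM in the striatum/thalamus of HIBI pup 4, against 3.38 to 7.81 CPM in the other HIBI pups.

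The other 6 came from miR-196, where a single library of the group had any count. Such a group meets the criterion by construction, so these 6 are not to be set against 1 in 20. MiR-196a-5p was 0.464 CPM in the cerebellum and 0.955 CPM in the striatum/thalamus of sham pup 6. MiR-196b-5p was 1.57 CPM in the cerebellum of sham pup 8, 0.446 CPM in that of HIBI pup 7, 2.93 CPM in the striatum/thalamus of sham pup 3, and 1.46 CPM in that of HIBI pup 5. These rest on 1 to 7 counts each.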

How the results depend on the processing

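The regional results for miR-10a-5p kept their direction and call under all alternatives run, with a log2 fold change between 3.52 and 3.91 for the cerebellum against the forebrain and between 2.43 and 2.91 for the striatum/thalamus against the cortex. Those of miR-10b-5p ran from 2.54 to 2.83 and from 0.57 to 1.00. The second lost its call in the HIBI libraries alone (0.57, with fewer samples) and without HIBI pup 4 (0.61), and with each pup left out it ran from 0.61 to 0.98. With the pup as a block in the fit, the paired values were 3.65 and 2.71 for the first comparison and 2.70 and 0.80 for the second, and the block changed no call in these. In the HIBI libraries alone, 207 rather than 315 miRNAs were called for the cerebellum against the forebrain, 128 rather than 234 for the striatum/thalamus against the cortex, and 138 rather than 282 for the cerebellum against the cortex.

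The HIBI comparisons of the members were uncalled and several changed sign around 0. Leaving out a pup, miR-10a-5p ran from -1.0 to 0.08 in the cerebellum, from -0.70 to -0.31 in the striatum/thalamus, and from -0.99 to -0.11 in the cortex, and miR-10b-5p from -0.32 to 0.0038 in the cerebellum, from -0.43 to -0.01 in the striatum/thalamus, and from -0.35 to 0.47 in the cortex. With no CPM minimum, miR-10a-5p was counted in the cerebellum (-0.72, adjusted p = 0.274). MiR-615-3p changed sign in the striatum/thalamus without sham pup 3 (-0.15), and without HIBI pup 4 (-0.90), where its average fell under 10 CPM and it was kept in the fit by a choice made with the results in view. Its range over pups left out was -0.90 to 0.51 there. In the cerebellum miR-615-3p ran from -1.26 to -0.57 and was no longer counted in 5 alternatives.

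The difference of the HIBI effect between the forebrain and the cerebellum turned for miR-10a-5p, from 0.04, with RLE scaling (-0.0012), library size alone (-0.04), DESeq2 (-0.00073), no CPM minimum (-0.06), and the pup as a block (-0.07), and for miR-10b-5p, from 0.09, with library size alone (-0.06) and no CPM minimum (-0.03). Leaving out a pup, it ran from -0.38 to 0.22 and from -0.09 to 0.46. Library size alone moved the median of all miRNAs by -0.19 for this difference and by 0.16 for HIBI against sham in the cerebellum, and upper quartile scaling moved the latter by -0.13. Of the miRNAs counted in the HIBI cerebellum, 47.1% were higher with TMM, 80.4% with library size alone, and 15.2% with upper quartile scaling. The cause was not tested.

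With no CPM minimum the number of miRNAs counted rose from 34 to 106 in the cerebellum, from 12 to 54 in the striatum/thalamus, from 14 to 86 in the cortex, and from 0 to 10 for the difference of the effect. With an average above 1 CPM the same regions had 61, 19, and 41, with DESeq2 or the fit of 24 libraries 19 in the striatum/thalamus, and with a pup left out 18 to 82, 5 to 38, and 10 to 17.

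Keeping the members in each fit with a pup left out, and leaving pups out of the miR-10 ratio, were choices made with the results in view. The log2 ratio of miR-10b-5p to miR-10a-5p in the cortex minus that in the striatum/thalamus, 1.88, ran from 1.77 to 2.08 with a pup left out. Under the alternatives, the miR-10 members had the direction and the side of the threshold of the value reported in 34 of 34 values for the cerebellum against the forebrain, 32 of 34 for the striatum/thalamus against the cortex, 81 of 90 for HIBI against sham, and 17 of 30 for the difference of the HIBI effect. Without the library that held the most counts, also chosen with the results in view, the pooled value of miR-196a-5p in the cerebellum over the cortex floor fell from 3.60 to 2.28, with an interval that reached under the floor, and miR-196b-5p had no bound.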
